A study of Homo sapiens with 2 samples.

Results

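The heat-shock proteins described here are 10 chaperone genes of the cytosol and of mitochondria: HSPA8, HSPA1A, HSPA1B, HSPH1, HSP90AA1, HSPB1, DNAJB1, DNAJA1, HSPD1 and HSPE1. They were chosen from earlier measured values of these libraries, among the 33538 genes listed, so their difference between the groups describes the choice and supports nothing. They were measured by single-cell RNA sequencing in A375, a human melanoma cell line. The tested cells were CTL-tolerant persisters, A375 cells that survived 15 days beside NY-ESO-1 CTLs, cytotoxic T lymphocytes directed at the cancer-testis antigen NY-ESO-1. Their medium held 7.5 ng/mL recombinant interleukin 2, and the CTLs were replaced every 3 days. The parental cells were untreated, and whether their medium held interleukin 2 was not stated. Both groups were grown in RPMI medium with serum and detached with trypsin. Each group was 1 library, so no difference below has a replicate check and no test was run. The compared cells were 6605 persister and 10630 parental barcodes that passed the filters on genes, UMIs (distinct molecules counted), mitochondrial share and T cell markers.

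Heat-shock proteins bind unfolded stretches of other proteins. HSP70 proteins such as HSPA8 and HSPA1A cycle on and off their clients with ATP, J-domain proteins (DNAJA1, DNAJB1) bring the clients and speed the ATP step, and HSPH1 helps to release the nucleotide. HSP90 then matures many kinases and receptors, HSPB1 holds clients without ATP, and HSPD1 with its lid HSPE1 forms a folding chamber in the mitochondrial matrix. Their stress-induced transcription is driven mainly by HSF1, which as a trimer binds inverted repeats of a short GAA-type unit. In tumour cells these chaperones are known for being abundant, and CTL killing itself is known to load the target with proteases.

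The promoters of 6 members are shown because they carry the letters of the HSF1 unit and span the whole range of the differences below, from HSPA1A to HSPB1. Each is the 250 bases before an annotated start in RefSeq on GRCh38.p14, read 5′ to 3′ on the gene's strand, with capitals at every GAANNTTC or TTCNNGAA, searched on both strands with overlapping matches joined. The windows are chr11:123062137-123062386 (minus strand) for HSPA8, chr6:31815293-31815542 (plus) for HSPA1A, chr14:102087045-102087294 (minus) for HSP90AA1, chr7:76302423-76302672 (plus) for HSPB1, chr19:14518398-14518647 (minus) for DNAJB1 and chr2:197499841-197500090 (minus) for HSPD1.
HSPA8: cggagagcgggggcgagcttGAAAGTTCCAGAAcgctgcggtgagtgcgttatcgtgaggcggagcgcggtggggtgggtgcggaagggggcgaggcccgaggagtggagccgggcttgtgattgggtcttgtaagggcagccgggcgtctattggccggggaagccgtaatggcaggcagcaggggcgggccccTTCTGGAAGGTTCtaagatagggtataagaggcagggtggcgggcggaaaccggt
HSPA1A: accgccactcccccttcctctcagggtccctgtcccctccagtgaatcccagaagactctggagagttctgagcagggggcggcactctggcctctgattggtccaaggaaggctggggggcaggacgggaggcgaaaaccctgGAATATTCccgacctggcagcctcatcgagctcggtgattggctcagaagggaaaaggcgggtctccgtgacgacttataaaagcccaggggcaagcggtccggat
HSP90AA1: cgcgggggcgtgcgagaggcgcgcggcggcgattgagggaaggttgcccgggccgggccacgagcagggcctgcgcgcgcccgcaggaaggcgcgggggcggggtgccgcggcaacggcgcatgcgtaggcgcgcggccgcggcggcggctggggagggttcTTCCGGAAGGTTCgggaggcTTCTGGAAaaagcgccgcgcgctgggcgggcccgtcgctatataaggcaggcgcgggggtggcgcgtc
HSPB1: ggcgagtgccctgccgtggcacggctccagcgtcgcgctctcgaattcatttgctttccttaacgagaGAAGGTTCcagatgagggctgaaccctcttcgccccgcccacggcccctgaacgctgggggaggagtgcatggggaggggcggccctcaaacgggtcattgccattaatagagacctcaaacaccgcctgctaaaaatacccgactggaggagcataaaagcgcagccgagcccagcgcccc
DNAJB1: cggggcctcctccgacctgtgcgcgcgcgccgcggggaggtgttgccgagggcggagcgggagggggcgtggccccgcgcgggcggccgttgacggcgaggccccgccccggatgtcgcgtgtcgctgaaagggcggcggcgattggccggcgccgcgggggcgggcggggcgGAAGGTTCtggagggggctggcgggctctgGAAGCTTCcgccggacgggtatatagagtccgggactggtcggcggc
HSPD1: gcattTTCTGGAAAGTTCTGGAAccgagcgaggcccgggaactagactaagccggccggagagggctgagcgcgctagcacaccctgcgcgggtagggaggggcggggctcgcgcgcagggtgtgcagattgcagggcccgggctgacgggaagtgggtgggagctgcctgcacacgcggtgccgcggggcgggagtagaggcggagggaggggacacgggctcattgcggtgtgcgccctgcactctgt

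All 10 members had a window in RefSeq, and 8 of the 10 had a match in at least 1 of their 14 windows, against 3813 of 27305 genes with a window (13.96%). Over windows, 8 of the 14 matched, against 4067 of all 35116 (11.6%). Matches that overlap into 3 alternating units in a row were found for HSPA8, HSP90AA1 and HSPD1, against 152 of all genes (0.557%). The HSPA8 window held 4 matches, the first 230 bases before the start and the last 50 bases before it. The single match of HSPA1A lay 106 bases before its start and that of HSPA1B 105 bases, in windows that shared 235 bases in a global alignment. HSPD1 and HSPE1 are divergent neighbours whose starts in these windows are 538 bases apart, and the HSPD1 matches began 294 bases before the HSPE1 start, outside the HSPE1 window. HSPH1 and HSPE1 had no match in their own windows. A match is a description of letters, not a bound site.

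The kept persister cells had a median of 11284 UMIs, 3164 genes and 7.53% mitochondrially encoded UMIs, against 7590 UMIs, 2654.5 genes and 5.92% in parental cells. The summed UMIs were 79546026 in persister and 88110998 in parental cells. Values are UMIs per 1000000 UMIs of a library (CPM), with 95% exact Poisson intervals that cover counting error only. Of 13 melanoma markers 8 were measured, of which 2 were past 2-fold as higher in persister cells and 0 as lower. SOX10, S100B, S100A1, MIA and CSPG4 were at 179, 63.2, 83.0, 1064 and 79.5 CPM in persister and 99.6, 47.5, 51.3, 168 and 26.7 CPM in parental cells. PRAME, the lineage factor MITF and VIM were at 22.7, 6.99 and 1758 CPM in persister and 42.7, 13.8 and 1929 CPM in parental cells. The pigment gene PMEL was at 0.138 CPM in persister and 0.102 CPM in parental cells, MLANA, TYRP1 and DCT were lower still, and TYR had 0 UMIs, which allows up to 0.0377 CPM in persister and 0.0340 CPM in parental cells. The T cell marker rule left out 162 persister barcodes, 2.39% of those that passed the other filters, and 0 parental ones. In the cells kept, the sum of the 6 markers of that rule was 6.24 CPM in persister and 2.87 CPM in parental cells, and CD2 was at 0 in parental cells only. Most of that sum was TRAC, at 4.46 CPM in persister and 2.70 CPM in parental cells. A total of 38 barcode sequences were listed in both libraries. Without them the summed member ratio was 0.368, as with them.

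All 10 heat-shock genes were lower in the persister library. Summed, they took 2934 CPM (2922 to 2946) in persister and 7983 CPM (7964 to 8001) in parental cells, a ratio of 0.368 (0.366 to 0.369). A total of 9 of the 10 were at least 2-fold lower and 0 were at least 2-fold higher, where 10.8% of the 9938 measured genes (at least 5 CPM in either library) were at least 2-fold lower and 10.1% at least 2-fold higher. Since this contrast chose the members, nothing is read from that count or from their median fold. HSPA1A and HSPA1B passed the 5 CPM filter through the parental library alone. The median log2 fold of the 10 genes was -1.48, against -0.15 over all measured genes, on the log2(CPM + 1) scale. With trimmed-mean (TMM) scaling, which moved the median of all genes to -0.03, the count was 7 of 10, where 8.21% of the genes measured on that scale were at least 2-fold lower, and HSP90AA1 and DNAJA1 were no longer past 2-fold. That scaling gave 822 genes lower and 1167 (11.7%) higher, so that 58.7% of those past 2-fold were higher, against 1070 lower and 1001 higher, or 48.3% higher, without it.

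**Figure D1:**
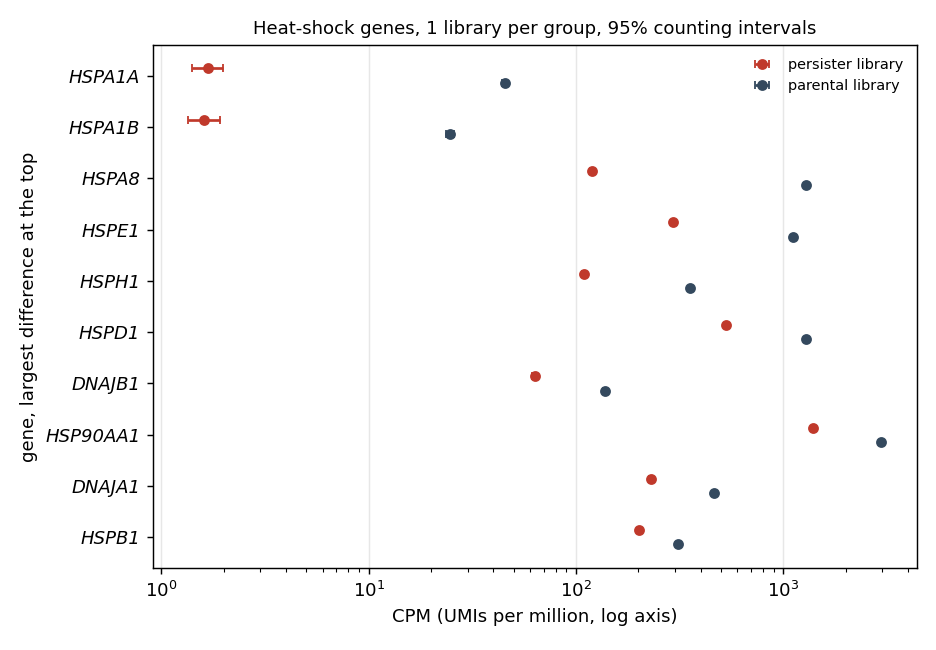
CPM of the 10 heat-shock genes (log axis) in the persister library and the parental library, 1 point per library with 95% Poisson counting intervals, genes ordered by ratio. Every persister point lies left of its parental point, and the gap narrows down the page to HSPB1.

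The HSP70 genes differed most. HSPA8 (ENSG00000109971, chr11:123057489-123063230, minus strand, GENCODE 29 on GRCh38), the constitutive cytosolic HSP70, was at 119 CPM (117 to 122) in persister and 1284 CPM (1277 to 1292) in parental cells, 10.8-fold lower (10.5 to 10.98). It ranked 125th among all genes of the parental library by CPM, and its persister rank was 1222. HSPA1A (ENSG00000204389, chr6:31815464-31817946, plus strand), the stress-induced HSP70 with a single exon, had 134 UMIs or 1.68 CPM (1.41 to 2.00) in persister cells, against 3992 UMIs or 45.3 CPM (43.9 to 46.7) in parental cells. This was 26.9-fold lower (22.6 to 32.2). Its copy HSPA1B (ENSG00000204388, chr6:31827735-31830255, plus strand), which starts 9789 bases past the end of HSPA1A, had 128 UMIs or 1.61 CPM (1.34 to 1.91) in persister cells, against 2179 UMIs or 24.7 CPM (23.7 to 25.8) in parental cells. It was 15.4-fold lower (12.9 to 18.5). Their reads cannot be fully separated: 22.2% of the 50-base words in the last 500 bases of HSPA1A also occur in HSPA1B. The sum of both genes was 3.29 CPM in persister and 70.0 CPM in parental cells, 21.3-fold lower (18.8 to 24.2). HSPA1A UMIs per HSPA1B UMI were 1.05 (0.815 to 1.34) in persister and 1.83 (1.74 to 1.93) in parental cells.

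HSPH1 and HSP90AA1, which act with HSP70 and after it, were lower by less. HSPH1 (ENSG00000120694, chr13:31134974-31162388, minus strand), the HSP110 that releases nucleotide from HSP70, was at 110 CPM (107 to 112) in persister and 356 CPM (352 to 360.0) in parental cells, 3.25-fold lower (3.17 to 3.32). HSP90AA1 (ENSG00000080824, chr14:102080738-102139699, minus strand), the inducible cytosolic HSP90, was at 1385 CPM (1377 to 1393) in persister and 2970 CPM (2958 to 2981) in parental cells, 2.14-fold lower (2.13 to 2.16). It made up 47.2% of the member UMIs in persister cells and 37.2% in parental cells, while HSPA8 made up 4.07% in persister and 16.1% in parental cells. Without HSPA8 the other 9 genes still had a summed ratio of 0.420 (0.418 to 0.422), and without HSP90AA1 the ratio was 0.309 (0.307 to 0.311). HSPB1 (ENSG00000106211, chr7:76302544-76304295, plus strand), the small heat-shock protein HSP27, was at 202 CPM (199 to 205) in persister and 309 CPM (306 to 313) in parental cells. At 1.53-fold lower, a ratio of 0.654 (0.641 to 0.667), it was the member outside the 2-fold count.

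Both J-domain genes were about as much lower as HSP90AA1. DNAJB1 (ENSG00000132002, chr19:14514770-14529770, minus strand), a stress-induced partner of HSP70, was at 63.4 CPM (61.7 to 65.2) in persister and 138 CPM (135 to 140.1) in parental cells, 2.17-fold lower (2.10 to 2.24). DNAJA1 (ENSG00000086061, chr9:33025211-33039907, plus strand), a farnesylated HSP70 partner, was at 229 CPM (226 to 233) in persister and 465 CPM (460.1 to 469) in parental cells. It was 2.03-fold lower, with an interval (1.99 to 2.06) that spans the 2-fold line. Because HSPA8 differed far more, DNAJA1 had 1.92 UMIs per HSPA8 UMI in persister and 0.362 in parental cells, and DNAJB1 had 0.531 in persister and 0.107 in parental cells.

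The mitochondrial chaperonin pair was lower, its lid more than its barrel. HSPD1 (HSP60, ENSG00000144381, chr2:197486581-197516737, minus strand) was at 527 CPM (522 to 532) in persister and 1278 CPM (1271 to 1286) in parental cells, 2.43-fold lower (2.40 to 2.45). HSPE1 (HSP10, ENSG00000115541, chr2:197499994-197503457, plus strand) was at 295 CPM (291 to 299) in persister and 1113 CPM (1106 to 1120) in parental cells, 3.77-fold lower (3.72 to 3.83). HSPD1 had 1.79 UMIs per HSPE1 UMI in persister cells (1.76 to 1.81) and 1.15 in parental cells (1.14 to 1.16). The annotated ranges of the pair overlap on opposite strands, and 47.5% of the 50-base words in the last 500 bases of HSPE1 occur in another gene, 25.1% in the read-through transcript HSPE1-MOB4, so the HSPE1 level is uncertain. For HSPB1 the share was 21.7%, for HSPA8 3.99% and for HSPA1B 1.11%, and for HSPH1, HSP90AA1, DNAJB1, DNAJA1 and HSPD1 it was 0.

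The persister library held fewer cells with proliferation transcripts, so the members were also read within classes of cells. The 5897 persister and 9094 parental cells with at least 5000 UMIs were thinned to 5000 UMIs each, and split by the summed UMIs of MKI67, TOP2A, CCNB1 and PLK1, which mark dividing cells. There were 2826 persister and 477 parental cells with 0 such UMIs, 2096 persister and 3434 parental cells with 1 to 4, and 975 persister and 5183 parental cells with 5 or more. Summed member CPM was 2604, 3094 and 3287 over these classes in persister cells and 6151, 7886 and 8443 in parental cells, so the highest persister class lay under the lowest parental class. The persister over parental ratio was 0.423 (0.415 to 0.432) with 0 proliferation UMIs, 0.392 (0.388 to 0.397) with 1 to 4 and 0.389 (0.383 to 0.396) with 5 or more. With classes set by the S phase genes TYMS, PCNA, MCM2 and RRM2, these ratios were 0.379, 0.383 and 0.3845. The order of the classes thus depended on the genes that set them. Weighting persister cells to the parental class shares gave a ratio of 0.392, against 0.356 at their own shares. At least 2-fold lower were 6, 8 and 8 of the 10 members, from the lowest class to the highest, where 12.7%, 11.1% and 11.2% of the measured genes were. All 10 members were lower in each class.

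Most members were higher in cells with 5 or more proliferation UMIs than in cells with 0, in both libraries. The summed ratio between these classes was 1.26 (1.24 to 1.29) in persister and 1.37 (1.35 to 1.40) in parental cells. With the S phase genes it was 1.20 in persister and 1.18 in parental cells, so which library had the larger ratio depended on the class genes. HSPA8 was at 113, 121 and 134 CPM over the classes in persister cells and 883, 1190 and 1410 CPM in parental cells. HSPA8 was thus 7.79-fold lower in the class with 0 and 10.6-fold lower in the class with 5 or more. HSPA1A was at 1.84, 2.19 and 2.67 CPM in persister cells, from 26, 23 and 13 UMIs, and at 21.0, 34.5 and 52.7 CPM in parental cells. Its 5 or more over 0 ratio was 1.45 in persister cells, with an interval from 0.684 to 2.92 that includes 1, and 2.51 (1.90 to 3.40) in parental cells.

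HSPB1 ran the other way in both libraries. It was at 211, 208 and 191 CPM over the classes in persister cells and 329, 311 and 299 CPM in parental cells, with 5 or more over 0 ratios of 0.902 (0.837 to 0.971) in persister and 0.909 (0.844 to 0.979) in parental cells. DNAJA1 was at 240, 216 and 238 CPM in persister cells, with no steady order, and at 332, 441 and 495 CPM in parental cells. Its persister over parental ratio was therefore 0.722 (0.668 to 0.781) with 0 proliferation UMIs and 0.481 (0.452 to 0.510) with 5 or more. DNAJB1 shared this pattern, with persister over parental ratios of 0.668 (0.576 to 0.778) with 0 proliferation UMIs and 0.490 (0.438 to 0.547) with 5 or more. HSP90AA1 and HSPD1 kept nearly the same ratio in every class, at 0.518, 0.507 and 0.516 for HSP90AA1 and 0.431, 0.418 and 0.431 for HSPD1. Median depth before thinning was 10656.5, 12826 and 15239 UMIs over the classes in persister cells and 6894, 7553.5 and 8813 UMIs in parental cells, and the median mitochondrial share was 8.21%, 7.49% and 6.81% in persister and 6.55%, 6.04% and 5.77% in parental cells. Their part in these class differences was not tested.

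**Figure D2:**
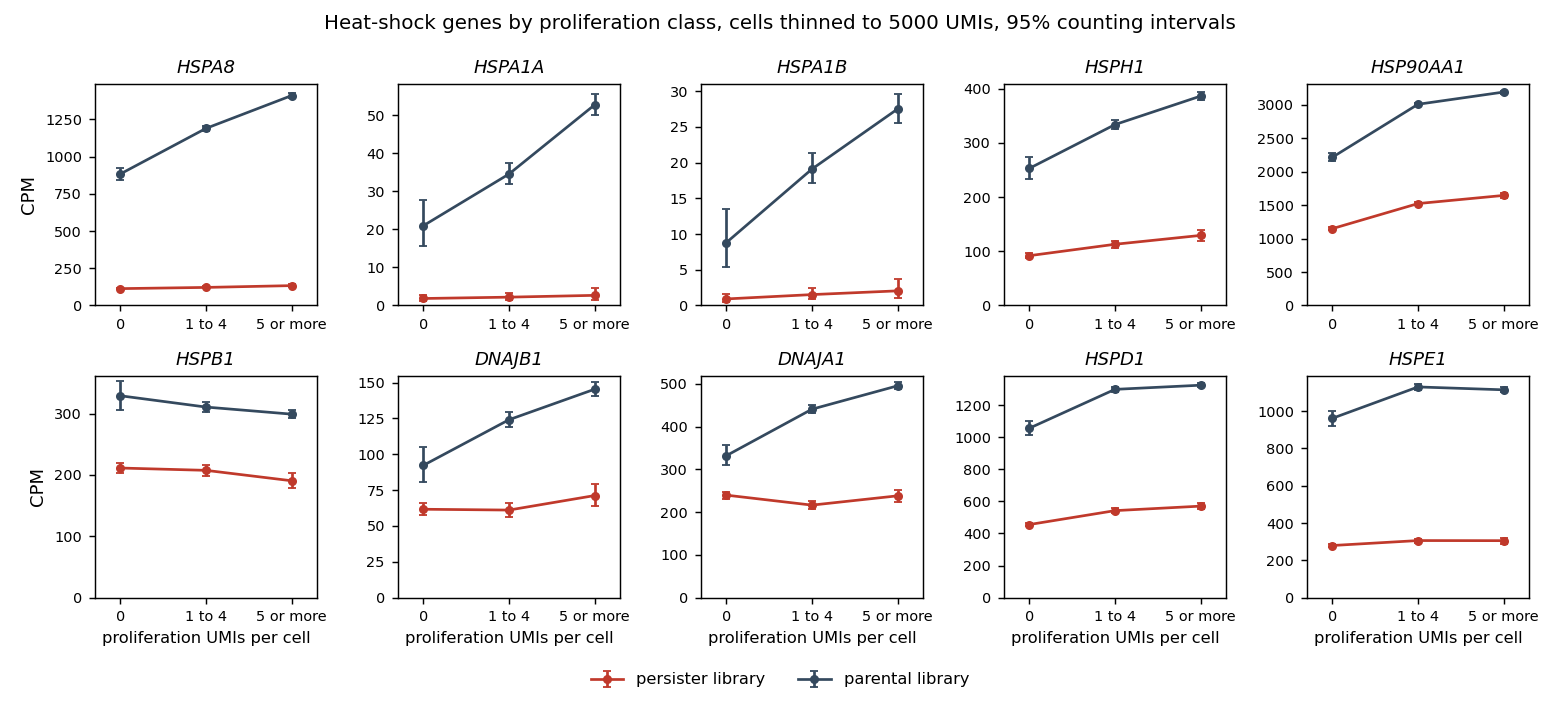
CPM of each heat-shock gene in cells with 0, 1 to 4 and 5 or more proliferation UMIs, persister and parental library, with 95% Poisson counting intervals and each vertical axis starting at 0. The parental lines lie above the persister lines in every panel, and HSPB1 is the panel in which both lines slope down.

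The difference was spread over nearly all cells rather than held by a few. At 5000 UMIs, persister cells had a median of 14 member UMIs (5th to 95th percentile 7 to 25) and parental cells 41 (22 to 59). Of the persister cells, 5374 of 5897, or 91.1% (95% exact Clopper-Pearson interval 90.4 to 91.8%), had 22 member UMIs or fewer, the parental 5th percentile, as did 5.45% of parental cells. At or above the parental median were 5 persister cells. The share with 22 or fewer was 95.01% in persister cells with 0 proliferation UMIs and 86.6% in those with 5 or more. At least 1 HSPA8 UMI was seen in 42.5% (41.2 to 43.8%) of persister and 98.5% (98.2 to 98.7%) of parental cells, and at least 5 in 0.203% of persister and 67.2% of parental cells. HSPA1A or HSPA1B was seen in 100 persister cells, 1.70% (1.38 to 2.06%), and in 26.5% (25.6 to 27.4%) of parental cells, and 3 or more UMIs of the pair in 0 of 5897 persister cells, which allows up to 0.0625%, against 95 of 9094 parental cells.

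No cell type in these libraries should lack heat-shock transcripts, so the barcodes left out by the T cell rule are given for scale. These 162 barcodes had a median of 3568 UMIs and held HSPA8 at 187 CPM (159 to 218) and HSPA1A at 17.5 CPM (9.82 to 28.9, from 15 UMIs). HSPA1A was thus higher in them than in the compared persister cells and lower than in parental cells. A UMI of HSPA1A was seen in 8.02% of those barcodes and, without thinning, in 1.95% of persister and 27.1% of parental cells. For HSPA8 the shares without thinning were 54.3% of those barcodes, 65.3% of persister and 98.6% of parental cells. HSPA1B went the other way, with a share of 0.617% of those barcodes, from 1 UMI, and 1.86% of persister cells without thinning. The source of the few HSPA1A and HSPA1B UMIs in persister cells was not tested. They are not read as expression in single persister cells.

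**Figure D3:**
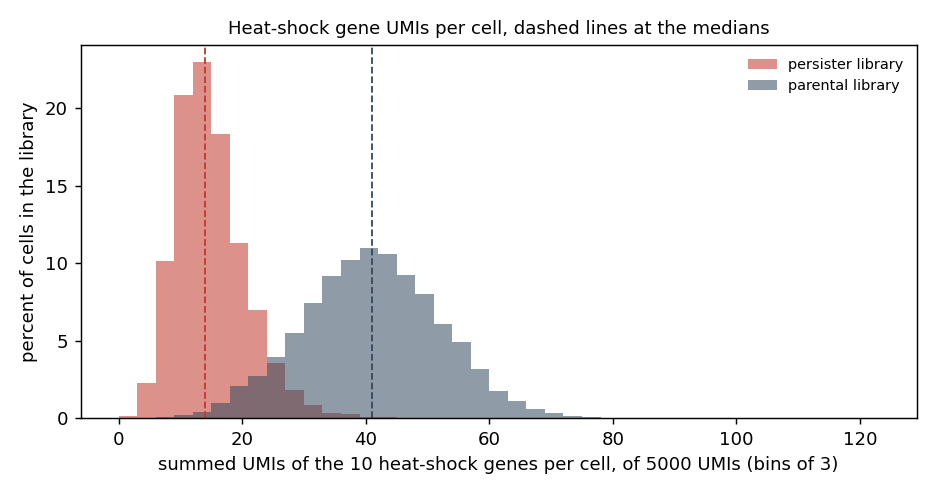
Distribution of the summed UMIs of the 10 heat-shock genes per cell at 5000 UMIs, as percent of the cells of the persister library and the parental library in bins of 3 UMIs, with dashed lines at the medians of 14 (persister) and 41 (parental). Little of the persister distribution lies above 25 UMIs, its 95th percentile, and little of the parental one below 22 UMIs, its 5th percentile.

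The members varied together weakly from cell to cell in both libraries. Across the 45 pairs, the Pearson correlation of log2(UMIs + 1) had a median of 0.014 and a highest value of 0.170 over 5897 persister cells, and a median of 0.054 and a highest value of 0.285 over 9094 parental cells. The cells of a library share its preparation and all have the same depth here. Member counts are sparse, and sparser in persister cells, which lowers a correlation. The correlations are therefore descriptions only, and the libraries are not compared by them. In parental cells the highest pairs were HSPA8 with HSP90AA1 at 0.285 and HSP90AA1 with HSPD1 at 0.248. In persister cells HSP90AA1 with HSPD1 was the highest at 0.170. Variance over mean, which is 1 for counting noise alone, was 1.17 for HSPA8 in persister and 2.17 in parental cells. For HSP90AA1 it was 2.45 in persister and 2.57 in parental cells. HSPB1 was at 1.22 in persister and 1.09 in parental cells. This measure rises with the mean at the same relative spread, so the libraries are not compared by it. Mean UMIs per cell were 0.598 in persister and 6.50 in parental cells for HSPA8, and 6.81 and 15.3 for HSP90AA1.

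**Figure D4:**
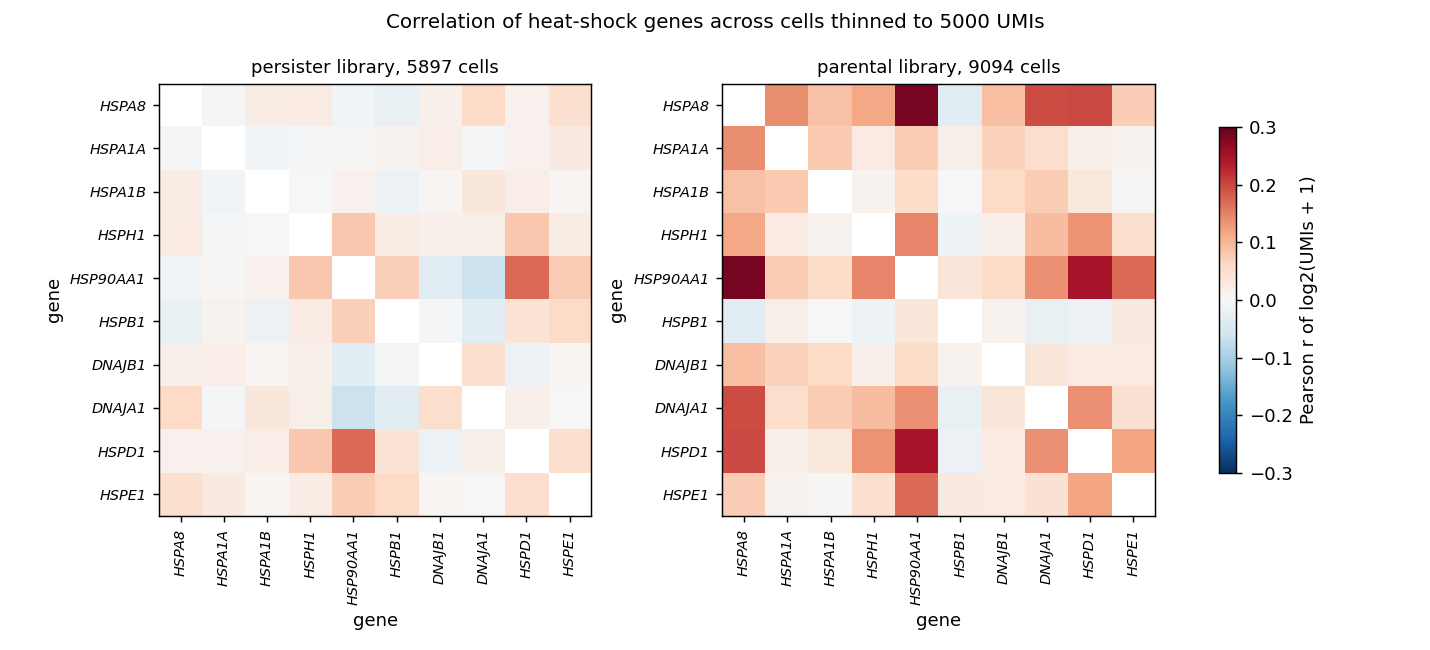
Pearson correlation of log2(UMIs + 1) between heat-shock genes across cells thinned to 5000 UMIs, persister library on the left and parental library on the right, with red for positive and blue for negative values and the diagonal left blank. The strongest squares are HSPA8 with HSP90AA1 (0.285) and HSP90AA1 with HSPD1 (0.248) in the parental library, and HSP90AA1 with HSPD1 (0.170) in the persister library.

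Parental cells in which the inducible pair was seen more often also had more of most other members, as point values without intervals. In the 95 parental cells with 3 or more HSPA1A and HSPA1B UMIs, HSPA8 was at 1937 CPM, HSP90AA1 at 3598 CPM and DNAJB1 at 221 CPM. In the 6685 parental cells with 0 such UMIs, these were at 1228, 3010 and 127 CPM. HSPB1, which was little apart, was at 324 CPM in the cells with 3 or more and 303 CPM in those with 0, and HSPE1 at 1242 CPM with 3 or more and 1110 CPM with 0. The cells with 3 or more had a median depth of 9357 UMIs and MKI67 at 467 CPM, against 7936 UMIs and 282 CPM in cells with 0. In the 2314 parental cells with 1 or 2 such UMIs HSPA8 was at 1480 CPM, DNAJB1 at 153 CPM and HSPE1 at 1112 CPM, for HSPE1 hardly above the cells with 0. No persister cell had 3 or more. The 100 persister cells with 1 or 2 had HSPA8 at 128 CPM, DNAJB1 at 76.0 CPM, DNAJA1 at 274 CPM, HSPD1 at 592 CPM and HSPE1 at 358 CPM. The 5797 persister cells with 0 had these at 119, 62.8, 230.5, 504 and 292 CPM. HSP90AA1 was at 1444 CPM in persister cells with 1 or 2 and 1361 CPM in those with 0. HSPH1 and HSPB1 went the other way, at 100 and 204 CPM with 1 or 2 and 106 and 207 CPM with 0. These persister differences come from 100 cells and have no interval, so nothing is read from them.

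The genes whose level most resembled the summed members across cells were ranked among genes seen in at least 10% of cells, by the Pearson correlation of log2(UMIs + 1) with that of the member sum. Over 9094 parental cells and 5146 genes the first were NPM1 (0.444), HSP90AB1 (0.416) and NCL (0.406), followed by TUBB4B, TUBA1B, HNRNPU, ACTG1, SERBP1, PTMA and CALM2 between 0.312 and 0.259. Over 5897 persister cells and 4930 genes they were ENO1 (0.306), NPM1 (0.296), TUBA1B (0.289), HMGB1, HNRNPA2B1, PTMA, NCL, UBE2S, HSP90AB1 and CENPF, the last at 0.243. NPM1, HSP90AB1, NCL, TUBA1B and PTMA stood in both lists. TUBB4B was 4th in parental cells and 1222nd in persister cells. The median over all genes ranked was 0.012 in persister and 0.011 in parental cells. Counting noise lowers the correlation of genes with few UMIs, so the ranking favours abundant genes. HSP90AA1 alone made up 47.2% of the member UMIs in persister and 37.2% in parental cells. All these cells share their library's depth and composition, and no p is given.

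The summed members were lower in persister cells at each depth and mitochondrial share and in cells with 0 or 1 T cell marker detected. In cells of 10000 to under 20000 UMIs the members summed to 2997 CPM in 3384 persister cells and 7878 CPM in 2388 parental cells. In cells with 5 to 10% mitochondrial UMIs they summed to 2940 CPM in 5026 persister and 7741 CPM in 8172 parental cells. Member levels were lower at a higher mitochondrial share in both libraries, at 3546 CPM under 5% and 2487 CPM at 10 to 20% in persister cells and 9012 and 5835 CPM in parental cells. In cells with 0 T cell markers detected the members summed to 2917 CPM in 6182 persister cells and 7988 CPM in 10382 parental cells. With 1 marker they summed to 3130 CPM in 413 persister and 7822 CPM in 247 parental cells. With 2 markers there were 10 persister cells and a single parental cell, too few to compare, and HSPA8 was at 172 CPM in persister cells and 125 CPM in that parental cell. The 629 persister cells of 20000 UMIs or more had 2934 CPM with HSPA8 at 116 CPM. The 188 parental cells of that depth stood below the other parental cells, at 5594 CPM with HSPA8 at 678 CPM.

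Chaperone genes outside the members lay on both sides. Since this contrast chose the members, the size of their difference is not compared with that of other genes. The lists too were set with earlier results of these data known, so their counts and medians are descriptions and support nothing. HSF1, the main heat-shock transcription factor, was at 31.4 CPM (30.2 to 32.6) in persister and 43.8 CPM (42.5 to 45.2) in parental cells, a ratio of 0.716 (0.681 to 0.753). HSF2 was at 10.4 CPM in persister and 11.1 CPM in parental cells. In the list of HSF1 and its regulators, 0 of 6 measured genes were 2-fold apart. Of these EP300, an acetyltransferase, was at 25.7 CPM in persister and 18.9 CPM in parental cells, and HSBP1, which binds HSF1, at 555 CPM in persister and 613 CPM in parental cells. Among other HSF1 target genes, 10 of 20 were at least 2-fold lower and 0 higher, with a median log2 fold of -0.94, against -0.15 over all measured genes and with 10.8% of these lower. With TMM scaling the count was 7 lower and 1 higher, where 8.21% of the genes measured on that scale were lower and 11.7% higher. SERPINH1, the collagen chaperone, was at 13.6 CPM in persister and 45.9 CPM in parental cells. BAG3, which links HSP70 to autophagy, was at 25.1 CPM (24.0 to 26.2) in persister and 61.6 CPM (59.98 to 63.3) in parental cells.

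Of the HSP70 and HSP90 co-chaperones, 8 of 23 were at least 2-fold lower and 0 higher, with a median of -0.59, beside 10.8% lower and -0.15 over all measured genes. With TMM scaling 6 of the 23 were lower, beside 8.21% of the genes measured on that scale. Of the 8, BAG3, STIP1, AHSA1, FKBP4 and PTGES3 are already counted among the HSF1 targets, and the lists are not independent. The same holds for TCP1, HSPA4L and DNAJB4, which are counted as lower in other lists too. STIP1, at a ratio of 0.49999 (0.489 to 0.511), and NUDC, at 0.492 (0.483 to 0.5005), have intervals that span the 2-fold line. FKBP4, an HSP90 immunophilin, was at 30.3 CPM in persister and 106 CPM in parental cells. PTGES3 (p23), which steadies closed HSP90, was at 304 CPM in persister and 748 CPM in parental cells. HSPBP1, a nucleotide exchange factor, was at 24.8 CPM in persister and 66.7 CPM in parental cells. HSP90AB1, the constitutive cytosolic HSP90, was at 1239 CPM (1231 to 1247) in persister and 2332 CPM (2322 to 2342) in parental cells, a ratio of 0.531. Of the 5 measured genes of a list of other HSP70 and HSP90 genes, 1 was at least 2-fold lower and 1 higher. The lower one, named after its value was seen, was HSPA4L, at 2.23 CPM in persister and 10.1 CPM in parental cells. The higher one was HSPA13, which is known from the microsomal fraction and not the cytosol, at 29.1 CPM in persister and 13.9 CPM in parental cells. HSPA4, another HSP110, was at 135 CPM in persister and 200.4 CPM in parental cells. Of the other small heat-shock proteins, 0 of 8 reached 5 CPM in either library.

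Of the other J-domain genes, 2 of 18 were at least 2-fold lower and 1 higher with a median of -0.12, close to the 10.8% lower, 10.1% higher and -0.15 of all measured genes. DNAJC1, of the endoplasmic reticulum membrane, was at 90.8 CPM in persister and 34.8 CPM in parental cells. DNAJC11, of the mitochondrial outer membrane, was at 23.7 CPM in persister and 48.0 CPM in parental cells, and the endosomal DNAJC13 at 36.6 CPM in persister and 23.8 CPM in parental cells. The DNAJC11 ratio of 0.494 (0.467 to 0.521) has an interval that spans the 2-fold line. Of the subunits of the cytosolic chaperonin TRiC and of prefoldin, 3 of 14 were at least 2-fold lower with a median of -0.66. These were CCT3 at 192 CPM in persister and 609 CPM in parental cells, TCP1 at 101 CPM in persister and 217 CPM in parental cells, and CCT6A at 349 CPM in persister and 729 CPM in parental cells. With TMM scaling 1 of the 14 was past 2-fold as lower, close to the 8.21% of all genes measured on that scale. The prefoldin subunits, named after their values were seen, lay on both sides. PFDN2 was at 1629 CPM in persister and 1058 CPM in parental cells, a ratio of 1.54, and PFDN4 and PFDN6 had ratios of 1.23 and 1.01. VBP1, PFDN1 and PFDN5 had ratios of 0.681, 0.800 and 0.839.

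Of the other mitochondrial chaperones and proteases, 0 of 16 were at least 2-fold lower and 1 was higher with a median of -0.12, beside 10.8% lower, 10.1% higher and -0.15 over all measured genes. In cells with 1 to 4 proliferation UMIs, 1 of the 16 was lower. HSPA9, the mitochondrial HSP70, was at 299 CPM (295 to 303) in persister and 205 CPM (202 to 208) in parental cells, a ratio of 1.46 (1.43 to 1.49). Its exchange factor GRPEL2 was at 44.1 CPM in persister and 17.1 CPM in parental cells. TRAP1, the mitochondrial HSP90, was at 51.5 CPM in persister and 89.5 CPM in parental cells, and the protease subunit SPG7 at 24.0 CPM in persister and 47.4 CPM in parental cells, with ratios of 0.575 for TRAP1 and 0.507 for SPG7. Of the endoplasmic reticulum chaperones, 3 of 17 were at least 2-fold lower and 2 higher, with a median of -0.32. HSPA5 (BiP), the HSP70 of that compartment, was at 720.0 CPM (714 to 726) in persister and 492 CPM (487 to 496) in parental cells. Its partner SDF2L1 was at 30.2 CPM in persister and 124 CPM in parental cells, and CRELD2 at 14.1 CPM in persister and 45.6 CPM in parental cells. HERPUD1, of the degradation machinery, was at 76.4 CPM in persister and 23.6 CPM in parental cells, so this list held members on both sides. Of the proteasome subunits, 0 of 31 were 2-fold apart with a median of -0.05, and the 3 with the largest difference, PSMD3, PSMD12 and PSMC5, had ratios between 0.521 and 0.583. The medians of the J-domain and proteasome lists changed sign with TMM scaling, to 0.00 and 0.07. A further list, of 12 immediate-early genes such as FOS and JUN, lay mostly on the higher side. In persister cells 8 of them were past 2-fold as higher and 0 as lower, and JUN was the 1 gene below a log2 fold of 0. Their median log2 fold was 1.59. EGR1, ATF3 and JUNB were at 67.4, 81.6 and 149 CPM in persister and 2.72, 3.52 and 27.2 CPM in parental cells. Whether this bears on the member difference was not tested.

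**Figure D5:**
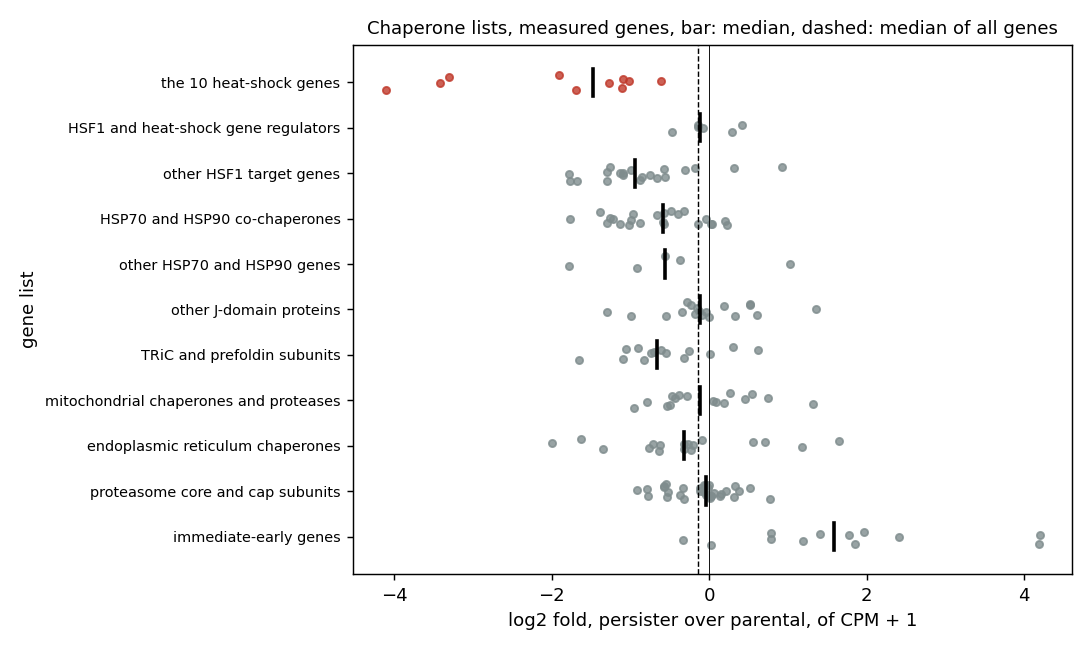
Log2 fold, persister over parental, of CPM + 1 for the measured genes of each list, 1 point per gene, with a bar at the list's median and a dashed line at the median of all measured genes (-0.15). The 10 heat-shock genes have a median of -1.48, which is not compared with the lists since this contrast chose these genes. Other HSF1 target genes have a median of -0.94, co-chaperones -0.59 and TRiC and prefoldin subunits -0.66. The mitochondrial, J-domain and proteasome lists lie near the dashed line. The immediate-early genes, which are not a chaperone list, have a median of 1.59.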

How the data were processed

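The authors deposited 1 matrix of raw UMI counts per group, whole numbers with no normalization, per the file headers. The labels' protocols give the 10x Chromium 3' v3 chemistry, and per the submitters' processing notes Cell Ranger 3.1.0 and GRCh38 were used. The annotation release and the treatment of reads that match several genes are not given in the sources used here. The members and lists were chosen with earlier results of these data known.

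Barcodes were kept with at least 500 genes, 1000 UMIs, at most 20% mitochondrially encoded UMIs and fewer than 3 of CD2, CD3D, CD3E, CD52, PTPRC and TRAC detected. No doublet caller was run. UMIs were summed per library and given as CPM, and a gene was called measured from 5 CPM in either library. A log2 fold is that of CPM + 1. Per-cell values come from cells thinned to 5000 UMIs without replacement, which left out 708 persister and 1536 parental cells. Intervals are 95% exact Poisson, conditional binomial (ratios) or Clopper-Pearson, and the limit for a count of 0 is 3 UMIs for CPM and the Clopper-Pearson bound for shares of cells. They cover counting error only. The alternatives are listed with the closing values, and those on shared barcodes, cells of 20000 UMIs or more and mitochondrial share were added after the data were seen. The steps were tested on simulated sums. Named genes were all 10 members, in each list up to 3 genes of at least 20 CPM whose log2 fold was furthest from 0, HSF1, HSF2, HSP90AB1, HSPA9, BAG3 and HSPA5, and the 10 genes per library that most resembled the member sum. Positions are from GENCODE 29 and promoters from RefSeq. Tools were Python 3.11.15, numpy 2.4.6, scipy 1.17.1, pandas 2.3.3, R 4.3.3 and edgeR 4.0.16 (TMM factors only).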

Additional observations from a re-analysis of the deposited data

Results flagged for a closer look

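DNAJA1 differed between proliferation classes in opposite directions in the 2 libraries, with counting intervals on opposite sides of 1. In cells with 1 to 4 proliferation UMIs over cells with 0, its ratio was 0.903 (counting interval 0.855 to 0.952) in the persister library and 1.33 (1.23 to 1.43) in the parental library. In cells with 5 or more over cells with 0 the ratio was 0.993 (0.928 to 1.06) in persister and 1.49 (1.39 to 1.61) in parental cells, so the persister interval includes 1. DNAJB1 had point values on opposite sides too in cells with 1 to 4 over cells with 0, at 0.991 (0.893 to 1.10) in persister and 1.34 (1.17 to 1.55) in parental cells, with a persister interval that includes 1. The difference between the libraries was not tested, since each is 1 library.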

How the results depend on the processing

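The summed member ratio of 0.368 was 0.372 with a stricter cell filter (1000 genes, 3000 UMIs, 10% mitochondrial UMIs), 0.398 with TMM scaling, 0.364 with a library total without mitochondrial, ribosomal and member genes, 0.364 with every cell weighted the same, 0.362 without cells of 20000 UMIs or more and 0.380 in cells with 5 to 10% mitochondrial UMIs. It stayed within its counting interval under the other T cell marker settings and without the 1% of cells with the highest member share or the shared barcodes. The count of members at least 2-fold lower was between 7 and 9 of 10 in the settings run without the split into classes. Beside it, 822 of 10016 measured genes were lower with TMM scaling and 1241 of 10749 with the changed library total, against 1070 of 9938. In cells with 0 proliferation UMIs the count was 6 of 10, where 12.7% of the measured genes were lower. Since this contrast chose the members, nothing is read from these counts. DNAJA1 was past 2-fold in 6 of 10 alternatives, HSP90AA1 in 9, HSPB1 in 0 and the other 7 members in all 10.

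With no filter on low genes, 4844 genes passed the 2-fold line as lower and 4902 as higher, and at 20 CPM or more 595 as lower and 578 as higher, since the filter sets how many genes are counted. The median log2 fold over all chaperone lists, without the members, was -0.31, and -0.19 with TMM scaling. The medians that changed sign with that scaling were those of the J-domain list, at 0.000149, and of the proteasome list, at 0.070.

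The ratio in cells with 0 proliferation UMIs (0.423) was 0.386 when cells were thinned to 3000 UMIs, 0.379 when classes were set by the S phase genes TYMS, PCNA, MCM2 and RRM2, and 0.438 from all UMIs. In cells with 1 to 4 (0.392) it was 0.398 with the stricter filter, 0.383 with S phase genes and 0.403 from all UMIs. The 5 or more over 0 ratio was 1.20 in persister and 1.18 in parental cells with S phase genes, 1.25 in parental cells at 3000 UMIs and 1.23 in persister cells from all UMIs. The persister share at or below the parental 5th percentile (91.1%) was 84.6% at 3000 UMIs and 90.4% with the stricter filter. The cause of these shifts was not tested.

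No library was left out, since each group has 1. No paired analysis was possible because each group has 1 library. The depth left HSPA1A and HSPA1B with under 150 UMIs each in persister cells, which limits their values within classes.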
